A study of Mus musculus with 6 samples.

Results

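The genes described here are 48 genes of G2 phase and mitosis, listed by symbol, from the 18324 gene rows of a count table of sorted B16-F10 mouse melanoma cells. They were matched exactly to the mouse symbols of the table's first column, and all 48 were found. They fall into 8 roles: cyclins with Cdk1 and its activators, mitotic kinases with the spindle checkpoint, the chromosomal passenger complex, centromere and kinetochore, spindle microtubules and motors, midzone and cytokinesis, chromosome structure, and ubiquitin-driven mitotic exit.

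B16-F10 is a melanoma line whose cells vary in melanin, and the cultured cells carried no other stated treatment or genetic change. Fluorescence-activated sorting on light scatter split them into high-pigmented cells (HPC) and low-pigmented cells (LPC), with 3 libraries of each. 1 HPC and 1 LPC library share each of 3 title suffixes, and these pairs are called pair 1 (suffix 16-9-15), pair 2 (18-8-14) and pair 3 (1-9-14). What the suffix marks, and whether libraries came from separate cultures, is not stated, so every p-value below measures the spread between these libraries, which may be technical. Reads came from the 3′ ends of transcripts.

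Gene counts per library ranged from 3819605 to 7311131. Pair 2 stands apart in composition: a row named RP23-81C12.3 took 53.9% (HPC) and 27.1% (LPC) of its gene counts and at most 5.03% elsewhere, and 10620 and 12778 genes had a count there against 14130 to 15002 elsewhere. Results that rest on pair 2 are therefore given with and without it. The melanocyte markers *Pmel*, *Mlana*, *Tyr*, *Tyrp1*, *Dct*, *Mitf* and *Sox10* were detected in each of the 6 libraries. Their summed normalised counts ran from 4443 to 20733 CPM. CPM are counts scaled to a common library size, where the size is corrected by TMM (trimmed mean of M values). The lowest sum was in the HPC library of pair 2, where *Dct* gave 4002 CPM and *Tyr* had 2 counts. Each marker averaged less in pair 2 than in pairs 1 and 3, for *Pmel* 185 against 1760 and 2848 CPM. The chosen markers of other cell types that the table lists (3 fibroblast, 2 leukocyte and 1 endothelial gene) summed to at most 33.2, 6.4 and 11.6 CPM, with the highest sum of each in the HPC library of pair 2, and no row matched the 4 keratinocyte markers.

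In G2 and mitosis, cyclin A and B bound to Cdk1 drive entry into division, Plk1 and the Aurora kinases build and correct the spindle, and the kinetochore links chromosomes to microtubules. The checkpoint holds the anaphase-promoting complex until all chromosomes are attached, after which Cdc20 and Ube2c drive the destruction of cyclin B. Most of these genes are transcribed in waves, held down outside the cycle by the DREAM complex at an element called the cell cycle homology region (CHR), and raised by B-Myb, FoxM1 and NF-Y. Their transcript levels are widely used as a sign of how many cells of a population are dividing.

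The 48 genes differed far more between pairs than between pigment groups. Together they took 0.459% (95% Wilson interval 0.452 to 0.465) and 0.362% (0.356 to 0.367) of gene counts in the HPC and the LPC library of pair 1, but 0.0432% (0.0416 to 0.0448) and 0.0359% (0.0346 to 0.0373) in pair 3. These intervals cover counting error only. The shares in pair 2 were 0.0270% and 0.0377%. On the CPM scale the sums were 3491 and 2726 in pair 1, 600.0 and 515.7 in pair 2, and 331.7 and 275.8 in pair 3, so pair 1 held 10.2 times as much as pair 3. The order of pairs 2 and 3 depended on scaling, since the raw share was similar in both while the CPM sum was higher in pair 2. The share was also higher in pair 2 without the row that set it apart in composition and the mitochondrial rRNA rows. It was then 0.0797% (HPC) and 0.0578% (LPC) in pair 2, against 0.0462% and 0.0379% in pair 3. In bulk RNA, fewer dividing cells and less of these transcripts per cell cannot be told apart.

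**Figure D1:**
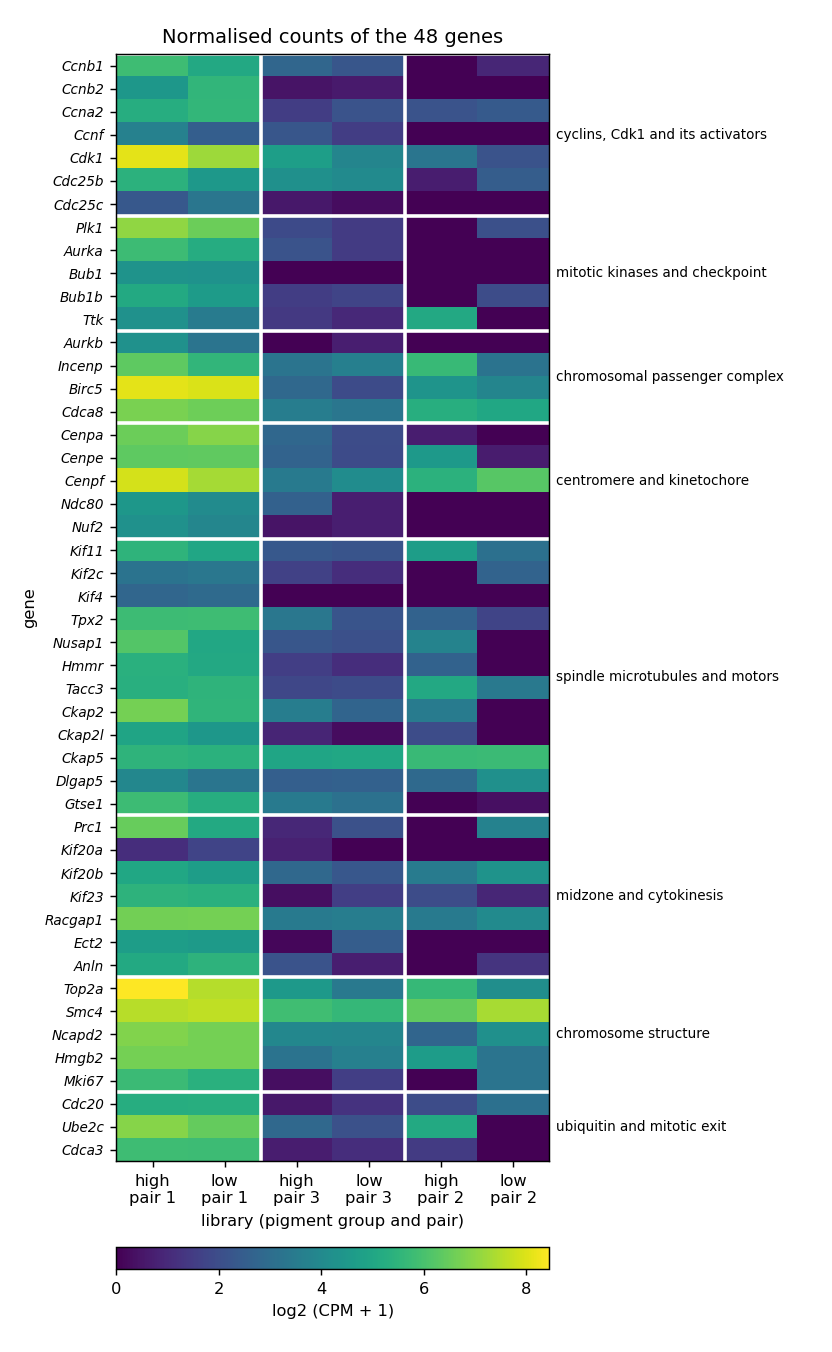
Each cell gives log2 (CPM + 1) of 1 gene (rows, by role) in 1 library (columns, by pair and pigment group). Pair 1 is brighter than pair 3 in each row, and *Ckap5* and *Smc4* also stay bright in pairs 2 and 3.

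**Figure D2:**
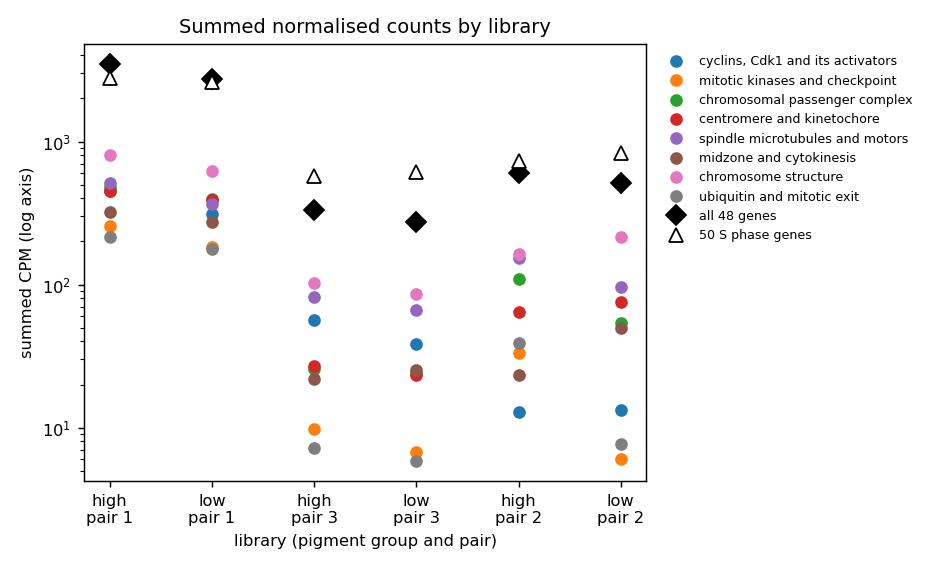
Summed CPM (log axis) of each role, of all 48 genes and of 50 S phase genes in the 6 libraries, 1 point per library. The sum over the 48 genes is 3491 and 2726 CPM in pair 1 and at most 600.0 CPM in the other 4 libraries.

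Both libraries of pair 1 lay above both of pair 3 in 48 of 48 genes, whereas this held for 24.0% of all rows of the table. The ratio of pair 1 to pair 3, from pooled counts on the scaled library sizes, had a median of 15.2 and was at least 4 in 43 of the 48 genes. The 5 below that were *Ckap5* at 1.36, *Cdc25b* at 1.92, *Dlgap5* at 2.26, *Ccnf* at 3.08 and *Smc4* at 3.70. These 5 were singled out after their values were seen. At the other end stood *Bub1*, a checkpoint kinase gene, which had 119 and 114 counts in pair 1 and 0 in each library of pairs 2 and 3, at least 115-fold higher in pair 1 than the limit of 3 counts over the libraries of pair 3.

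Promoters were examined for the letters of the CHR and of the NF-Y site, as a description without a test. A RefSeq promoter (build GRCm38.p6, 250 bases before to 50 after the start) was matched for 40 of the 48 genes. The letters of the CHR, searched as TTTGAA or TTCGAA on both strands, occurred in 82.5% of these 40 genes and in 21.7% of all 27025 genes with a promoter. CCAAT, the core letters bound by NF-Y, also searched on both strands, occurred in 80.0% against 41.1%, and at least 2 copies in 57.5% against 13.3%. Both motifs occurred in 72.5% of the genes and in 8.61% of all genes, and among the genes tested here that have a promoter in 6.58%. A match is a string of letters, not evidence of binding.

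The CHR letters clustered at the start. They began within 50 bases of it in 72.5% of the 40 genes, against 6.12% of all genes, 32.5% of 77 other G2 and mitosis genes and 4.88% of 41 S phase genes. The median position was -14 bases for the CHR letters and -71 for CCAAT, counted from the first transcribed base as 0. Among the tested genes of the list, the median log2 difference of pair 1 from pair 3 was 3.92 in the 24 with both motifs, 2.87 in the 4 with the CHR letters only, 3.20 in the 3 with CCAAT only and 3.98 in the 3 with neither. It was 0.26 over the 521 tested genes of any kind with both.

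**Figure D3:**
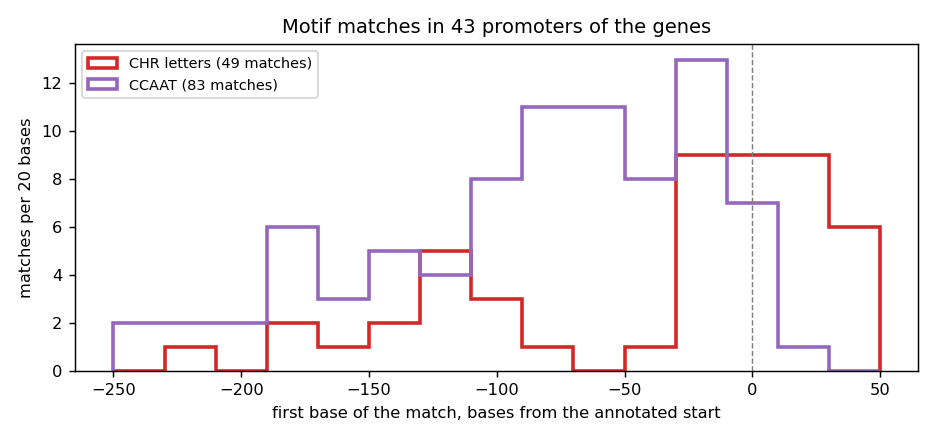
Number of motif matches per 20 bases (vertical axis) by distance of the first matched base from the annotated start (horizontal axis), in 43 promoters of 40 genes. The 49 CHR matches peak around the start (34 of them from -50 to 49) and the 83 CCAAT matches lie mostly before it (39 from -150 to -51).

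The promoters of 5 genes are shown to make this arrangement visible, from 250 bases before to 25 after the start, 5′ to 3′ on the gene's strand, with the letters of both motifs, on either strand, in capitals. *Top2a*, *Cenpf*, *Cdk1* and *Cdca8* are the most abundant genes of the list that hold both. *Ckap5* was added because it holds the same letters while its level changed least between pairs 1 and 3. In *Cdca8* 2 matches overlap, which gives the last run of capitals its length.
Top2a (chr11:99024165-99024439, GRCm38.p6, minus strand): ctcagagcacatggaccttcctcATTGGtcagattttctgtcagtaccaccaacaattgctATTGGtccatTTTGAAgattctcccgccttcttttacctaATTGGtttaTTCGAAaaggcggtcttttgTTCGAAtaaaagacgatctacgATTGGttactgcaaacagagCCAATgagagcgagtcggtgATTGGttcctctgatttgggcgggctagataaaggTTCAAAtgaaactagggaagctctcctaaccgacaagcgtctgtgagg
Cenpf (chr1:189688062-189688336, GRCm38.p6, minus strand): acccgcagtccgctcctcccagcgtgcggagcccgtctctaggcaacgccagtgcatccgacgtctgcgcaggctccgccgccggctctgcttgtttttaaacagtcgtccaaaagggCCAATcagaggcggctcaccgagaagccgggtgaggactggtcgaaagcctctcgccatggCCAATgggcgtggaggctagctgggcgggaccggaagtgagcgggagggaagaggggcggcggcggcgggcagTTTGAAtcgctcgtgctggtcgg
Cdk1 (chr10:69352888-69353162, GRCm38.p6, minus strand): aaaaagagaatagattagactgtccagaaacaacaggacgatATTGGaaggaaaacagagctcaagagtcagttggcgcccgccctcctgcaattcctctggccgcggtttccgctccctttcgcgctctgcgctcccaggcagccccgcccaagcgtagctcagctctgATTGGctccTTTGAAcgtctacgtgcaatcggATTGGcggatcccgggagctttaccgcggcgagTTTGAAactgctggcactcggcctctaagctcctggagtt
Cdca8 (chr4:124936893-124937167, GRCm38.p6, minus strand): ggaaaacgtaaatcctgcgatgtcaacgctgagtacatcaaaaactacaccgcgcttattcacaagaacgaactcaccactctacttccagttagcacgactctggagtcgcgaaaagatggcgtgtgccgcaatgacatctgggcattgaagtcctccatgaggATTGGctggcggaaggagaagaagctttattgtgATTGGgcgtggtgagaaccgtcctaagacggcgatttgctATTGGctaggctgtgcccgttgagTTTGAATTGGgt
Ckap5 (chr2:91526512-91526786, GRCm38.p6, plus strand): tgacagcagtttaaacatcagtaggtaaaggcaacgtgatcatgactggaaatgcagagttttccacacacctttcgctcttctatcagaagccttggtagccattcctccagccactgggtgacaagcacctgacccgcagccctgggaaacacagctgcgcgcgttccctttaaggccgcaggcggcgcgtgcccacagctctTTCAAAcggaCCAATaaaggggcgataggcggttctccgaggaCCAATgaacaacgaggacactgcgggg

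*Top2a* held 4 CHR and 6 CCAAT matches, *Cdk1* 2 and 3, *Cdca8* 1 and 4, and *Cenpf* and *Ckap5* 1 and 2 each.

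Among the cyclins, Cdk1 and its activators, *Cdk1* (chromosome 10, 69335146 to 69352938, GRCm38), the kinase at the centre of mitotic entry, was the most abundant by its mean over the libraries. It had 276, 8.73 and 25.8 CPM in the HPC libraries of pairs 1, 2 and 3 and 149, 3.43 and 13.3 CPM in the LPC ones. *Ccna2*, cyclin A, had 37.4, 3.49 and 1.87 CPM in HPC and 47.8, 4.29 and 3.46 CPM in LPC libraries. Both genes were thus highest in pair 1 in either pigment group, and they went in opposite directions within pairs: *Cdk1* was higher and *Ccna2* lower in the HPC library of each pair. *Ccnb1*, cyclin B1, had 56.3, 0 and 5.85 CPM in HPC and 33.1, 0.858 and 3.78 CPM in LPC libraries. *Ccnb2*, cyclin B2, was lower in the HPC library of pair 1 (21.2 against 46.4 CPM) and near its detection limit elsewhere. *Cdc25b* and *Cdc25c*, phosphatases that activate Cdk1, differed in abundance: *Cdc25c* never exceeded 54 counts, while *Cdc25b* had 42.3, 0.582 and 18.1 CPM in HPC and 21.8, 4.57 and 15.5 CPM in LPC libraries. *Ccnf*, cyclin F, a ubiquitin ligase subunit, had 75 and 29 counts in the HPC and LPC libraries of pair 1 and 32 and 18 in pair 3.

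The mitotic kinases had a summed CPM 26.6 times as high in pair 1 as in pair 3, against 10.2 times for the 48 genes, a difference that was not tested. *Plk1*, the Polo-like kinase, had 131, 0 and 2.69 CPM in HPC and 92.4, 3.15 and 1.78 CPM in LPC libraries. *Aurka*, the spindle-pole Aurora kinase, had 54.2, 0 and 3.51 CPM against 37.0, 0 and 1.78 CPM in the same order. *Ttk*, the kinase Mps1 that starts checkpoint signalling, showed how sparse counts behave in pair 2: it had 57 counts in the HPC and 0 in the LPC library, against 114 and 63 in pair 1 and 14 and 9 in pair 3. *Bub1b*, which encodes the checkpoint protein BubR1, had 210 and 143 counts in pair 1, 0 and 10 in pair 2 and 16 and 22 in pair 3.

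Of the chromosomal passenger complex, *Birc5*, the gene of survivin, had 272, 19.8 and 6.20 CPM in HPC and 249, 13.4 and 2.83 CPM in LPC libraries. *Cdca8*, the gene of borealin, had 106, 38.4 and 11.1 CPM against 94.9, 31.7 and 9.03 CPM. Both lay higher in the HPC library of each pair (log2 differences of 0.13, 0.55 and 1.04 for *Birc5* and 0.16, 0.27 and 0.29 for *Cdca8* in pairs 1, 2 and 3) and far lower in pair 3 than in pair 1, and *Cdca8* kept more of its level in pair 2. The scaffold gene *Incenp* had 500 and 279 counts in pair 1 and 72 and 110 in pair 3, and the kinase gene *Aurkb* 112 and 52 in pair 1 and 0 and 6 in pair 3.

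At the centromere, *Cenpf* led with 241, 41.9 and 10.1 CPM in HPC and 157, 75.5 and 16.2 CPM in LPC libraries. It binds the outer kinetochore in mitosis. *Cenpa*, the centromeric histone H3 variant, had 92.2, 0.582 and 6.08 CPM against 121, 0 and 2.94 CPM. *Cenpe*, a kinetochore motor, had 81.2, 22.1 and 5.50 CPM against 83.3, 0.572 and 2.83 CPM. None of these 3 went the same way in each pair. The microtubule-binding NDC80 complex genes *Ndc80* and *Nuf2* had 0 counts in both libraries of pair 2, with 131 and 97 counts for *Ndc80* and 112 and 83 for *Nuf2* in pair 1.

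Among the 12 spindle genes, *Ckap5*, a microtubule polymerase, had 44.3, 52.4 and 30.6 CPM in HPC and 41.5, 52.6 and 32.1 CPM in LPC libraries. All 6 of its libraries thus lay between 30.6 and 52.6 CPM. *Ckap2*, a microtubule-associated protein gene, had 101, 10.5 and 11.1 CPM against 45.4, 0 and 5.56 CPM, higher in the HPC library of each pair. *Kif11*, the motor that pushes spindle poles apart, was also higher in each pair, with 43.9, 25.03 and 3.98 CPM against 30.7, 7.72 and 3.57 CPM. *Nusap1* and *Hmmr*, both spindle assembly factors, and *Ckap2l*, a paralogue of *Ckap2*, were the others of the role with this pattern, and each had 0 counts in the LPC library of pair 2. *Tpx2*, the activator of Aurora A, had 338 counts in each library of pair 1. *Gtse1*, which is expressed in G2 and binds p53, had 338 and 227 counts in pair 1, 88 and 75 in pair 3 and 0 and 1 in pair 2. *Tacc3*, a spindle stabiliser, had 15.8-fold more in pair 1 than in pair 3, and *Ckap2l* 50.7-fold. The kinesin genes *Kif2c* and *Kif4* were scarce, and *Kif4* was detected in pair 1 alone, with 36 and 40 counts.

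Of the midzone and cytokinesis genes, *Racgap1*, a subunit of centralspindlin, was the most abundant by its mean over the libraries, with 100.2, 9.89 and 10.2 CPM in HPC and 103, 15.4 and 10.9 CPM in LPC libraries, slightly lower in the HPC library of each pair. Its partner *Kif23* was 36.1-fold higher in pair 1 than in pair 3. *Prc1*, which bundles midzone microtubules, had 88.0, 0 and 0.935 CPM against 34.2, 12.6 and 3.25 CPM, higher in the HPC library in pair 1 and lower in pairs 2 and 3. *Ect2*, the exchange factor that triggers the cleavage furrow, had 154 and 140 counts in pair 1, 0 in both libraries of pair 2 and 1 and 44 in pair 3. *Anln*, anillin, had 212 and 263 counts in pair 1 and 30 and 6 in pair 3. *Kif20a* was the scarcest of the 48 genes, with at most 14 counts, and *Kif20b* was 5.65-fold higher in pair 1 than in pair 3.

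For chromosome structure, *Top2a* (chromosome 11, 98992943 to 99024189, GRCm38), the topoisomerase that untangles sister DNA, was the most abundant of the 48 genes by the mean of pair 1, although *Birc5* and *Smc4* exceeded it in the LPC library of that pair. It had 349, 50.1 and 22.8 CPM in HPC and 183, 17.2 and 9.76 CPM in LPC libraries, so the HPC library was higher in each pair. *Smc4*, a core subunit of condensin, had 187, 84.4 and 56.9 CPM against 200, 162 and 48.1 CPM, with no common direction. *Ncapd2*, another condensin subunit, had 7.75-fold more in pair 1 than in pair 3, and the chromatin protein gene *Hmgb2* 9.94-fold. *Mki67*, the gene of the proliferation antigen Ki-67, had 329 and 245 counts in pair 1, 0 and 30 in pair 2 and 2 and 19 in pair 3.

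The 3 genes of mitotic exit had the largest ratio of pair 1 to pair 3 in summed CPM of the 8 roles, at 30.2. *Ube2c*, the E2 enzyme of the anaphase-promoting complex, had 121, 34.3 and 6.20 CPM in HPC and 85.8, 0 and 3.25 CPM in LPC libraries. *Cdc20*, its activator, had 37.3, 2.91 and 0.468 CPM against 38.3, 7.72 and 1.37 CPM, lower in the HPC library of each pair. *Cdca3*, a factor for mitotic entry, had 345 and 330 counts in pair 1 and 5 and 11 in pair 3.

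Of the 48 genes, 39 passed the filter on low counts (at least about 10 counts in enough libraries) and were tested with all genes in edgeR's quasi-likelihood model with terms for pair and pigment group. The 9 others (*Ccnb2*, *Cdc25c*, *Bub1*, *Aurkb*, *Nuf2*, *Kif4*, *Ckap2l*, *Kif20a* and *Cdca3*) had their counts mainly in pair 1, so the 39 do not stand for the whole list. In the contrast of pair 1 with pair 3, 0 of 39 passed an adjusted p of 0.05 (Benjamini-Hochberg over all genes), as did 0% of the 11324 genes tested. At an unadjusted p under 0.05, 30 of the 39 were higher in pair 1 and 0 lower, against 549 and 399 of all genes. The spread in this fit includes pair 2. The smallest adjusted p were those of *Top2a* (log2 fold change 4.09 ± 0.30 SE, adjusted p 0.0942), *Birc5* (5.93 ± 0.39, 0.0942) and *Cdk1* (3.45 ± 0.28, 0.0951). With DESeq2 and the same terms, 28 of the 39 were called higher in pair 1, against 2.82% of all genes.

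Without the libraries of pair 2, 47 of the 48 genes could be tested, and 44 of them had an adjusted p under 0.05 in edgeR, each higher in pair 1. Apart from *Kif20a*, the genes that had failed the filter with all libraries entered here on their counts in pair 1. *Bub1* and *Kif4*, for instance, had 0 counts in pair 3. For these added genes the direction was set by the filter, so their part in the 44 calls and in the median is no separate evidence. Of all 11906 genes in that fit, 13.7% were called higher in pair 1. The median log2 difference of the 47 was 3.90, against 0.01 over all genes. *Top2a* had 4.07 ± 0.17 (SE, adjusted p 9.6e-15), *Plk1* 5.64 ± 0.25 (1.6e-14) and *Birc5* 5.89 ± 0.23 (7.6e-14). The 3 that were not called were *Ckap5* (0.45 ± 0.21, adjusted p 0.116), *Dlgap5* (1.14 ± 0.43, 0.0549) and *Ect2* (3.66 ± 1.09, 0.105). For *Ect2* the LPC library of pair 3 stood apart from its HPC partner. This contrast sets 2 libraries against 2.

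Other G2 and mitosis genes, taken from lists of related functions, mostly showed the same direction, to different degrees. In the fit without pair 2, 56 of 92 such genes were called higher in pair 1 and 1 lower, against 13.7% of all genes called higher. The share was 16 of 16 for other spindle and cytokinesis genes, 16 of 26 for kinetochore and checkpoint genes, 9 of 17 for condensin and cohesin (with 1 lower), 7 of 10 for entry control, 5 of 9 for transcription factors of the programme and 3 of 14 for subunits and regulators of the anaphase-promoting complex. In that last list the median log2 difference was 0.14, against 0.01 over all genes. Of the other spindle and cytokinesis genes, only 7 passed the filter with all 6 libraries, and over all these lists 75 did. Genes added by leaving out pair 2 could enter on their counts in pair 1 alone. For such genes the direction was set by the filter, so their part in these calls is no separate evidence. In the 6-library fit, 64 of the 75 were higher in pair 1, against 5628 of all 11324 genes, with 0 called. *Foxm1*, the gene of the forkhead factor that activates many G2 genes, had 49.3, 0 and 7.13 CPM in the HPC and 40.7, 0 and 6.19 CPM in the LPC libraries of pairs 1, 2 and 3 (pair 1 against pair 3 without pair 2, 2.75 ± 0.26, adjusted p 7.6e-09). *Cks1b*, a small Cdk-binding protein gene, had 199, 25.6 and 55.7 CPM against 253, 41.2 and 67.1 CPM (1.88 ± 0.15, 5.6e-10). *Ncapg*, a condensin subunit, had 27.8 CPM in the HPC and 25.6 in the LPC library of pair 1 and 1.52 and 0.105 in pair 3. *Nsl1*, a kinetochore subunit, had 29.3 and 19.7 CPM in pair 1 and 6.08 and 3.99 in pair 3, and *Fbxo5*, an inhibitor of the anaphase-promoting complex, 33.2 and 18.5 against 4.91 and 3.46. *Arhgap11a*, a cytokinesis factor, had 41.5 and 41.6 CPM in pair 1 and 3.86 and 3.78 in pair 3. Each of these 4 was called higher in pair 1 without pair 2, as was the replication ligase gene *Lig1* (147 and 163 against 24.9 and 20.05 CPM). These 4, *Foxm1*, *Cks1b* and *Lig1* each had the smallest p of their list for pair 1 against pair 3 with all 6 libraries. They were named for that reason, so their calls in the same contrast are no separate evidence. S phase and replication genes were called in 39 of 50, with a median of 2.35, and their summed CPM was 4.53 times as high in pair 1 as in pair 3, against 10.2 times for the 48 genes. That difference between lists was not tested, and 46 of the 50 passed the filter with all 6 libraries. The melanocyte markers moved the other way in sum, at 0.604 of their pair 3 level in pair 1, but *Dct* made up most of that sum. In the fit without pair 2, 4 of the 7 markers were called lower in pair 1 and 0 higher. *Tyr* was 4.78-fold higher in pair 1, which was not called, and *Tyrp1* was nearly level (log2 difference 0.0151 ± 0.1222 SE). The part of the markers in the differences between pairs was not tested.

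**Figure D4:**
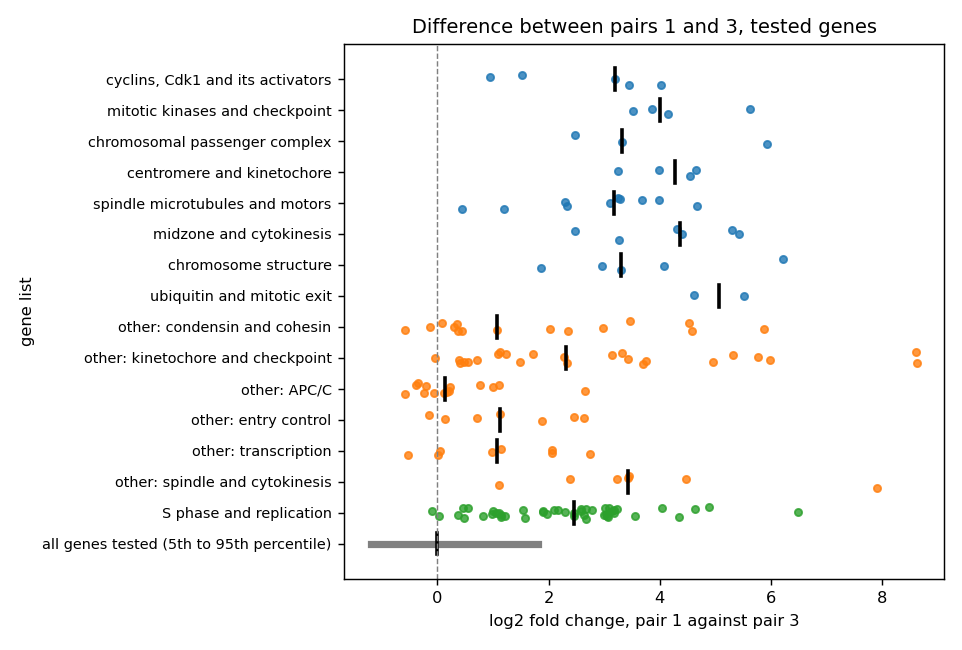
Log2 fold change of pair 1 against pair 3 (horizontal axis, 6-library fit) for each tested gene of each list (points) with the list's median (black bar). The grey bar spans the 5th to 95th percentile of all 11324 genes, -1.18 to 1.81, and 35 of the 39 genes described here lie to its right.

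The comparison of pigment groups asked whether the HPC differ from the LPC in these transcripts. The smallest p-values of the list were those of *Top2a* and *Cdk1*, each higher in HPC in every pair, and neither passed the threshold when all 6 libraries were fitted. With the pair block in edgeR, 0 of the 39 passed an adjusted p of 0.05, and so did 0% of all genes. DESeq2 with the block called 0 of the 39 and 4 of all genes, limma-voom 0 and 0, and limma-voom with sample weights 2 and 34. At an unadjusted p under 0.05, 2 of the 39 genes (5.13%) were higher in HPC against 0.786% of all genes, and 0 were lower against 124 genes in all.

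*Top2a* averaged 141 ± 181 CPM in HPC and 69.8 ± 97.7 CPM in LPC libraries (SD, n = 3 each), where the SD mostly reflects the gap between pairs. Its log2 fold change was 1.22 ± 0.22 (SE), with an unadjusted p of 0.00310 and an adjusted p of 0.927 in edgeR, and its within-pair differences were 0.93, 1.53 and 1.20 in pairs 1, 2 and 3. For *Cdk1* the means were 104 ± 150 and 55.2 ± 81.2 CPM (SD, n = 3 each), the log2 fold change was 1.02 ± 0.22 (SE; unadjusted p 0.00692, adjusted p 0.927 in edgeR) and the within-pair differences were 0.89, 1.27 and 0.94. The groups overlapped across pairs for both genes, and each pair on its own went the same way. With sample weights in limma-voom both passed (*Top2a* 0.99, adjusted p 0.0265, *Cdk1* 0.91, adjusted p 0.0403), where 0.238% of all genes were called higher in HPC.

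Leaving out pair 2 and keeping the block, edgeR called 3 of 47 genes higher in HPC and 0 lower, against 0.932% of all genes called higher. They were *Top2a* (1.04 ± 0.16 SE, adjusted p 0.000888), *Cdk1* (0.91 ± 0.16, 0.00369) and *Ckap2* (1.08 ± 0.22, 0.0103). *Cdk1* shares no stretch of 100 nucleotides at 95% identity with transcripts of another gene, *Top2a* shares stretches of up to 133 nucleotides with 8 genes and *Ckap2* of up to 166 with 68, so the counts of *Top2a* and *Ckap2* are uncertain to that extent. The 3 calls were lost without the pair term: with the same 4 libraries and no block, edgeR called 0 genes in all, and *Top2a* (0.94), *Cdk1* (0.89) and *Ckap2* (1.13) each had an adjusted p of 1. Leaving out pair 1 or pair 3 in place of pair 2, with the block, gave 0 calls among the genes in edgeR.

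Across the list the pigment groups differed by little. The median within-pair difference of the 39 genes was 0.40, 0.00 and 0.29 on the log2 scale in pairs 1, 2 and 3, against 0.02, -0.20 and -0.00 over all genes tested, and 29, 17 and 25 of the 39 were higher in the HPC library. The summed CPM of all 48 genes was 1.28, 1.16 and 1.20 times as high in the HPC library of pairs 1, 2 and 3. In pair 2 the direction of the sum depended on scaling, since the unscaled share was lower in the HPC library. With the row that set pair 2 apart in composition and the mitochondrial rRNA rows left out, the share was higher in the HPC library. It was then 0.0797%, against 0.0578% in the LPC library. Higher in the HPC library of all 3 pairs were 10 of the 39 genes (25.6%), against 12.9% of all genes. They were *Cdk1*, *Ttk*, *Birc5*, *Cdca8*, *Kif11*, *Nusap1*, *Hmmr*, *Ckap2*, *Top2a* and *Ube2c*. Lower in all 3 were 3 of 39 (7.69%), against 17.2% of all genes, namely *Ccna2*, *Racgap1* and *Cdc20*. In 5 of the 10 genes the LPC library of pair 2 had 0 counts. With pair 2 left aside, 19 of the 39 genes (48.7%) were higher in the HPC library of both pairs 1 and 3, against 29.5% of all genes, and 4 (10.3%) were lower in both, against 28.3%. Over all 48 genes these counts were 20 and 5.

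**Figure D5:**
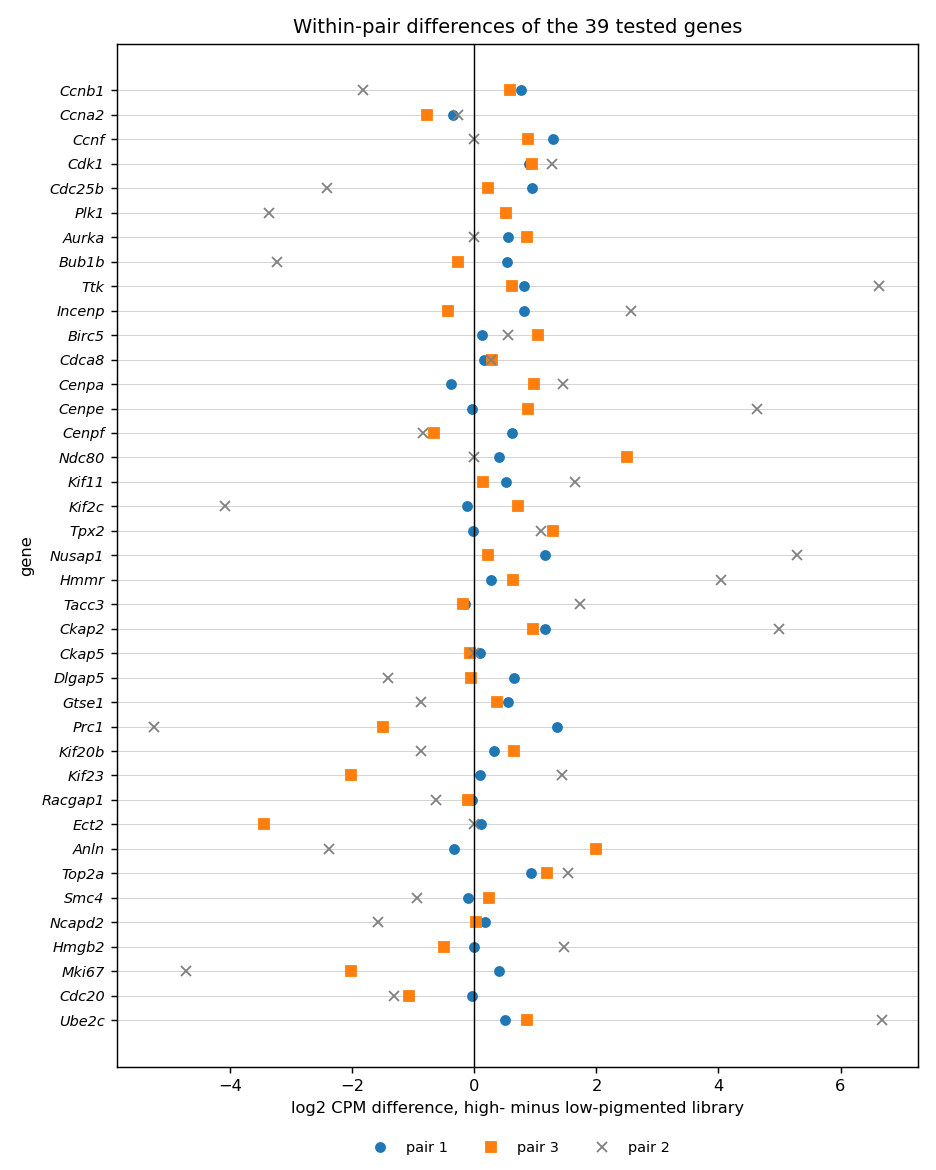
Difference in log2 CPM between the HPC and the LPC library (horizontal axis) for the 39 tested genes (rows) in pairs 1, 3 and 2 (circles, squares and crosses). *Cdk1* and *Top2a* lie right of 0 in each pair, and the crosses of pair 2 spread from -5.26 to 6.68.

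*Cdkn1a*, the gene of the Cdk inhibitor p21, which is not one of the 48 and was chosen with its values known, had 401, 414 and 301 CPM in HPC and 211, 140 and 186 CPM in LPC libraries of pairs 1, 2 and 3 (1.06 ± 0.23 SE, adjusted p 0.927 with 6 libraries, and 0.80 ± 0.13, adjusted p 0.00171 without pair 2). It was thus higher in HPC beside *Cdk1* and *Top2a*.

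By role, the sums over genes were higher in the HPC library of both pair 1 and pair 3 in 7 of the 8 roles, the exception being midzone and cytokinesis in pair 3 (ratio 0.869). The ratios in pairs 1 and 3 were 1.44 and 1.45 for the cyclins with Cdk1 and 1.41 and 1.42 for the mitotic kinases. They were 1.39 and 1.23 for the spindle genes and between 1.07 and 1.29 for the other 4. These sums follow their most abundant genes. In pair 1 *Cdk1* gave 276 of 449.9 CPM of its role in HPC and 149 of 311.5 in LPC. *Ccnb1*, *Ccnf* and *Cdc25b* were also higher in HPC there, but *Ccna2*, *Ccnb2* and *Cdc25c* were lower. *Top2a* gave 349 of 805.3 CPM of chromosome structure in HPC and 183 of 626.0 in LPC. In pair 2 the roles split, with ratios of 5.53 for the mitotic kinases, 5.05 for mitotic exit, 2.04 for the passenger complex and 1.60 for the spindle genes, but 0.974 for the cyclins with Cdk1, 0.850 for centromere and kinetochore, 0.770 for chromosome structure and 0.468 for midzone and cytokinesis. The kinase sum in the HPC library of pair 2 was *Ttk* alone (33.2 CPM in HPC, 0 in LPC). There *Plk1* and *Bub1b* went the other way (0 in HPC, 3.15 and 2.86 CPM in LPC). Mitotic exit rested mostly on *Ube2c* (34.3 against 0 CPM), with *Cdc20* opposite (2.91 against 7.72 CPM). *Incenp* (50.6 against 8.29 CPM) gave most of the excess of the passenger complex. These pair 2 ratios thus rest largely on single genes. For S phase genes the ratios were 1.07, 0.874 and 0.934 in pairs 1, 2 and 3. The other G2 and mitosis lists had 0 of 75 genes called in edgeR with 6 libraries and the block, and without pair 2 *Psrc1*, a microtubule-associated protein gene, was called higher in HPC (1.08 ± 0.27 SE, adjusted p 0.0419).

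In pair 2 many of the genes had no count, as did many rows of the whole table. In each of its libraries 19 of the 48 genes (39.6%) had 0 counts, against 42.0% of all rows in the HPC and 30.3% in the LPC library, and 11 genes (22.9%) had 0 in both, against 22.8% of all rows. In pair 1 the list had no gene at 0 and all rows 18.1% and 19.1%, and in pair 3 it had 6.25% in each library and all rows 22.9% and 19.6%. A count of 0 in pair 2 allows up to 1.75 CPM in the HPC and 0.86 CPM in the LPC library. Some genes were well detected in 1 library of the pair and at 0 in its partner: *Ube2c* had 59 and 0, *Ttk* 57 and 0, *Prc1* 0 and 44 and *Mki67* 0 and 30. In the contrast of pair 2 with the mean of pairs 1 and 3, edgeR called 1 of the 39 genes lower, *Cdk1* (-3.47 ± 0.29 SE, adjusted p 0.0323), against 0.344% of all genes, and 0 higher. That call was lost without the HPC library of pair 1 or without either library of pair 3. Without the HPC library of pair 2 the median of the list in this contrast was -2.765, against -0.176 over all genes. Without its LPC library the median was -1.942, against -0.511. With all 6 libraries in edgeR, *Gtse1* (-6.56 ± 0.87, adjusted p 0.0566) and *Cenpa* (-6.60 ± 0.98, 0.0620) were next, and their fitted values rest on at most 1 count in pair 2. The median of the 39 was -1.40, against -0.29 over all genes, and 9 of the 39 had a positive value, up to 0.87 in *Tacc3*.

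Counting could mix some of these genes with neighbours, since the use of strand is not stated. In GENCODE vM21 (GRCm38), exons of *Ccna2* overlap *Exosc9* on the opposite strand, those of *Cdc25b* overlap *Spef1*, *Prc1* overlaps *Rccd1*, *Cdc20* overlaps *Elovl1* and *Ube2c* overlaps *Tnnc2*. *Cdca8* and *Cenpa* share stretches of up to 150 and 154 nucleotides at 95% identity with 119 and 93 other genes.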

How the data were processed

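The deposited table holds counts of reads per gene, which the authors made with STAR on GRCm38, per the submitters' processing notes. The file name credits HTSeq, and versions, annotation, strand use and counting mode are not given in the sources used here. Libraries were QuantSeq 3′ libraries read on a NextSeq 500. Rows for reads in no gene (12.4 to 29.5% of tallied reads) or in several genes (0.487 to 2.51%) stayed out of library sizes and tests.

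The 48 genes, the other gene lists and the tests were chosen with earlier results of these data known. Genes passing filterByExpr (minimum count 10) were scaled by TMM and fitted in edgeR 4.0.16 (R 4.3.3) with robust quasi-likelihood, terms for pair and pigment group, and Benjamini-Hochberg adjustment over all 11324 genes. Log2 CPM for within-pair differences used a prior count of 2. DESeq2 1.42.0, limma 3.58.1 (voom, with and without sample weights), no filter, DESeq2 size factors, no pair term and left-out libraries were alternatives.

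The pair term was used because differences were taken within the shared title suffix. After removal of group means, libraries with the same suffix correlated at 0.466, 0.316 and 0.422 across genes, and those with different suffixes at -0.277 to -0.0206. Removing the mean of 3 libraries pushes the values for different suffixes below 0 once those for the same suffix are positive. The negative values are therefore no separate evidence of pairing. The biological coefficient of variation was 52.0%. In simulated counts with the 6-library design, 20.4% of 4-fold and 0.0% of 2-fold changes were recovered over 10635 genes, and 1 of 22 calls was false. With pairs 1 and 3 alone, 96.0% of 4-fold and 46.0% of 2-fold changes were recovered over 11617 genes, and 13 of 138 calls were false. Each gene was simulated with the same dispersion in all libraries, so a wider spread in pair 2 was not modelled. These rates may therefore not hold for the real fits.

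Named genes were, by a rule, the 2 most abundant and the one with the smallest p in each role, the 3 with the smallest p for each contrast of pairs and up to 3 in each direction with 1 direction in all 3 pairs. Other members are given more briefly, and the gene with the smallest p stands for each other list. Figures were drawn with matplotlib 3.10.9.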

Additional observations from a re-analysis of the deposited data

Results flagged for a closer look

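Reads that fell outside the gene rows formed a signal that no comparison above used. Reads overlapping no annotated gene reached 29.5123% of tallied reads, in the HPC library of pair 2, with 24.5% in its LPC partner and 12.4 to 17.9% in pairs 1 and 3. Reads overlapping several genes reached 2.5108%, in the LPC library of pair 3. Their part in the low counts of the G2 and mitosis genes in pair 2 was not tested.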

How the results depend on the processing

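The median of the list was higher in pair 1 than in pair 3 under each alternative run, while the number of genes called depended on the test and on pair 2. The replicate block is the pair term of the main model. Without it, the comparison of HPC with LPC gave 0 genes called and 0 of the list. With DESeq2 and the block, 4 genes were called between HPC and LPC, 433 (of the list 28) between pairs 1 and 3, and 2282 (16) between pair 2 and the others. With limma-voom the counts were 130 (8) and 1331 (7) in the comparisons of pairs, with a median of -1.91 for pair 2. With sample weights they were 34 (2) between HPC and LPC, 2500 (36) between pairs 1 and 3 and 694 (3, median -1.904) for pair 2. With no filter on low counts they were 14 (3, median 3.967) between pairs 1 and 3 and 348 (4, median -2.033) for pair 2. The cause of these differences was not tested.

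Leaving out 1 library or both of a pair gave 0 to 181 genes called between HPC and LPC, 0 to 3 of the list, with a median of 0.1781 to 0.2959. Between pairs 1 and 3 it gave 0 to 3098 genes, 0 to 44 of the list and a median of 3.253 to 4.111, and for pair 2 0 to 6369 genes, 0 to 31 of the list and a median of -2.765 to -1.525. The high counts in the comparisons of HPC with LPC and of pairs 1 and 3 came without a library of pair 2. Where 1 library of a pair was left, it was assumed to vary like the others. Added after seeing the data, edgeR without pair 2 and without the block called 0 genes between HPC and LPC, limma-voom without pair 2 called 344 genes (6 of the list) between HPC and LPC and 3292 (46, median 3.894) between pairs 1 and 3, and DESeq2 without pair 2 123 (2) and 1710 (40, median 3.98).

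Among genes named above, these had a log2 difference of HPC from LPC that was not called with all 6 libraries and changed sign. Of the values that follow, 1 passed an adjusted p of 0.05, that of *Prc1* with limma-voom without pair 2 (adjusted p 0.00683). Without the replicate block, it was 0.5519 for *Cdc25b*, 0.4669 for *Plk1*, -0.3121 for *Cenpa*, 0.2432 for *Cenpf* and 0.8432 for *Prc1*. With limma-voom, it was 0.451 for *Cdc25b*, 0.31 for *Plk1*, -0.1305 for *Cenpa*, 0.1489 for *Cenpf* and 0.6332 for *Prc1*. With sample weights, it was 0.6239 for *Cdc25b*, 0.4843 for *Plk1*, -0.2651 for *Cenpa*, 0.3589 for *Cenpf* and 1.132 for *Prc1*. Without pair 2 and the block, it was 0.6819 for *Cdc25b*, 0.4945 for *Plk1*, -0.3464 for *Cenpa*, -0.0023 for *Cenpe*, 0.5265 for *Cenpf* and 1.241 for *Prc1*. With limma-voom without pair 2, it was 0.6046 for *Cdc25b*, 0.4935 for *Plk1*, -0.2629 for *Cenpa*, 0.3609 for *Cenpf*, 1.173 for *Prc1* and 0.0227 for *Smc4*. With DESeq2 without pair 2, it was 0.5909 for *Cdc25b*, 0.5277 for *Plk1* and 0.0661 for *Smc4*. With libraries left out, it ranged from -1.045 to 0.5916 for *Cdc25b* (-0.1009 with all 6), -1.514 to 0.5207 for *Plk1* (-0.0177 with all 6), -0.0562 to 1.888 for *Cenpa* (0.4214 with all 6), -0.7689 to 0.1029 for *Cenpf* (-0.2866 with all 6), -0.0402 to 0.0506 for *Ckap5* (0.0063 with all 6), -0.3105 to 0.477 for *Gtse1* (0.3253 with all 6), -3.708 to 0.5805 for *Prc1* (-1.234 with all 6), -4.923 to 0.1135 for *Ect2* (-1.934 with all 6) and -0.5163 to 0.063 for *Smc4* (-0.2567 with all 6). DESeq2 size factors in edgeR, and leaving out RP23-81C12.3 with the mitochondrial rRNA rows, changed no call of a named gene. On the scaled library sizes a count of 0 allows most in the HPC library of pair 2, at 1.75 CPM.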
